A study of Arabidopsis thaliana with 9 samples.

Results

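Core genes of the circadian clock were examined by messenger RNA sequencing (mRNA-seq) in whole seedlings of Arabidopsis thaliana. The set held 10 genes, chosen by locus identifier, of the 32823 genes in the deposited files: CCA1 (AT2G46830), LHY (AT1G01060), LNK2 (AT3G54500), PRR9 (AT2G46790), PRR7 (AT5G02810), PRR5 (AT5G24470), TOC1 (AT5G61380), GI (AT1G22770), ELF4 (AT2G40080) and LUX (AT3G46640). Of the 9 libraries, 3 were from the mutant cyp71-3, 3 from the mutant se-1 and 3 from Col-0, the wild-type accession. CYP71 encodes a cyclophilin, a peptidyl-prolyl isomerase, and SE encodes SERRATE, which takes part in cutting microRNAs out of their precursors. Plants were 2 weeks old and grew under 16 h of light at 22 °C and 8 h of dark at 18 °C. The labels give neither the lesion in each allele nor the hour of collection, and each mutant is represented by 1 allele. The series' design text names cyp71-2 beside cyp71-3 and does not name se-1. Genotypes here follow the sample labels, and cyp71-2 was not analysed here. Nor do they say that libraries came from separate cultures, and the p-values then reflect only how far these libraries differ, which may be technical.

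The plant clock is a network of transcription factors that repress or activate one another in turn through the day. CCA1 and LHY, expressed around dawn, repress evening genes, the PRR proteins accumulate one after another through the day and repress CCA1 and LHY, and TOC1, GI and the evening complex (ELF3, ELF4 and LUX) follow towards dusk. LNK proteins act with RVE transcription factors as activators of afternoon and evening genes. A level at 1 time of day therefore depends on phase as well as on amplitude, and libraries without a stated hour cannot tell the 2 apart. Whether the genotypes were collected at the same hour is not given either. A difference in hour between genotypes could not be told apart from a difference due to genotype.

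Sequences upstream of the 10 genes were read from the RefSeq annotation and genome of build TAIR10.1, since the promoters of dawn and evening genes are known to carry different clock motifs. The files hold no coordinates, and the submitters' processing notes name TAIR10. Windows were the 300 bases before the annotated 5′ end of each gene. Motifs were searched as exact letters on both strands: the evening element AAAATATCT, the CCA1-binding site AAAAATCT and the G-box CACGTG. The evening element was in the windows of TOC1, PRR5 and LUX, against 2.79% of 27443 windows of nuclear protein-coding genes. A G-box was in those of CCA1, LHY, PRR9, PRR7 and LUX, against 7.09% of windows, and the CCA1-binding site was in that of PRR5 alone among the members, against 7.94%. The windows with a match of any of these 3 motifs are shown, with the matches in capitals and each sequence read 5′ to 3′ on the strand of its gene. These are exact matches and not shown to be bound sites.
CCA1: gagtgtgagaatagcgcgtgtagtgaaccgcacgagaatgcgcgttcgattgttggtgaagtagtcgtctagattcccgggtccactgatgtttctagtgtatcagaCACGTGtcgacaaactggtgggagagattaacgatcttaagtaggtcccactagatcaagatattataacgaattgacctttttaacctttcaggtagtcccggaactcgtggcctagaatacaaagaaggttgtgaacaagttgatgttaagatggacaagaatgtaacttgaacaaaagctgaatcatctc
LHY: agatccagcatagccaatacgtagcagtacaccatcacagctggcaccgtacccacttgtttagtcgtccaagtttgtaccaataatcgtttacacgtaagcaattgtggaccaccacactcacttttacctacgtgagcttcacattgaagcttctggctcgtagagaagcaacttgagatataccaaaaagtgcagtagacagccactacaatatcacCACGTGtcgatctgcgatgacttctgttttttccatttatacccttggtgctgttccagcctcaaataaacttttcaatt
PRR9: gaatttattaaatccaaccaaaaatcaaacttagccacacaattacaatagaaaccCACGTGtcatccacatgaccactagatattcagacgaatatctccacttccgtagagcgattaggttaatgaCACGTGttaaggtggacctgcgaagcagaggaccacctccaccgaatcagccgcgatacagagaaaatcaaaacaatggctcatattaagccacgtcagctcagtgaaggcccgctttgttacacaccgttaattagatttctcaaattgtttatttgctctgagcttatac
PRR7: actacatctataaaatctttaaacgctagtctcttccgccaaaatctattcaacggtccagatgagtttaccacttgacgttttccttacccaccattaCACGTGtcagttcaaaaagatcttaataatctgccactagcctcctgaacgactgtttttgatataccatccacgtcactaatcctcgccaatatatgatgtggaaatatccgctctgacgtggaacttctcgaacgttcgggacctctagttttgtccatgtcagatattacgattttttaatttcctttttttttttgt
PRR5: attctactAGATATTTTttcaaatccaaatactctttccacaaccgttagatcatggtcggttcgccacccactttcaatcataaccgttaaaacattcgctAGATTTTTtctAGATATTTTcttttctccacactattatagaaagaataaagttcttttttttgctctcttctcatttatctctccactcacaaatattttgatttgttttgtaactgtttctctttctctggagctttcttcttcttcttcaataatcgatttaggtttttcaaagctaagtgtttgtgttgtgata
TOC1: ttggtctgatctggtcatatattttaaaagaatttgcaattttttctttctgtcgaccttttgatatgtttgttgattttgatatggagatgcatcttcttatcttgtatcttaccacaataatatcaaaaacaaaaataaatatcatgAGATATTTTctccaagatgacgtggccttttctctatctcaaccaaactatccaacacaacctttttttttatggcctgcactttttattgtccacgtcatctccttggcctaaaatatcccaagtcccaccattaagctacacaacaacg
LUX: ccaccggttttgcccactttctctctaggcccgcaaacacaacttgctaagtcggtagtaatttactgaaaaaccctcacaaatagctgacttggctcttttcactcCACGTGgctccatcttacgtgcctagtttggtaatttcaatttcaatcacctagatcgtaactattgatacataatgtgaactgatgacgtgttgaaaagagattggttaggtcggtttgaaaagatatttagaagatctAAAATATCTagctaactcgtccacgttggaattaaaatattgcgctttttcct

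The CCA1 window lies at chr2:19245291-19245590 and that of PRR9 at chr2:19232307-19232606, both on the plus strand. The LHY window lies at chr1:37872-38171 on the minus strand, and that of LUX at chr3:17182742-17183041 on the plus strand. On chromosome 5, the windows of PRR7 (chr5:642031-642330) and PRR5 (chr5:8358547-8358846) are on the minus strand and that of TOC1 (chr5:24674663-24674962) is on the plus strand. The first base of the G-box stood 193 bases before the annotated 5′ end in CCA1, 80 in LHY, 201 in PRR7 and 193 in LUX, and PRR9 held a pair of G-boxes, at 244 and 172. Evening elements stood 151 bases before the 5′ end in TOC1, 53 in LUX and 292 and 187 in PRR5. Further motifs were searched in the same windows: the LUX-binding site (GATACG or GATTCG) was in those of PRR9, ELF4 and LNK2 (14.3% of all windows), and the TCP-binding site (GGNCCC) in those of CCA1 and PRR7 (8.20% of all windows). None of the 5 motif types was found in the GI window.

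**Figure D1:**
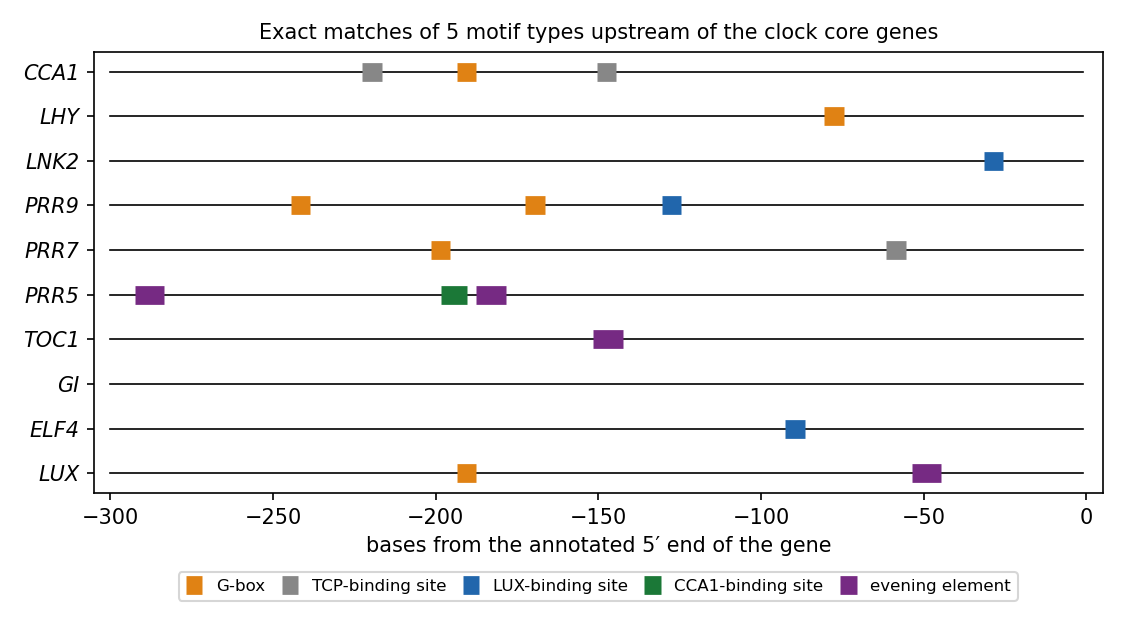
Positions of exact motif matches in the 300 bases before the annotated 5′ end of each clock core gene (x axis, bases from that end; 1 line per gene, coloured blocks are matches on either strand). Evening elements are in PRR5, TOC1 and LUX, and G-boxes in CCA1, LHY, PRR9, PRR7 and LUX.

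FPKM values (fragments per kilobase of transcript and per unit of sequencing depth) of a library summed to 825338 to 937136. Relative depth, read from the most frequent ratio of low values to those of cyp71-3 replicate 1, differed by up to 1.67 times. Tests were run on log2(FPKM + 1) for the 19180 genes with a mean FPKM of at least 1 over all libraries, and genes with an adjusted p under 0.05 are called higher or lower. CYP71 itself was 4.37-fold lower in the cyp71-3 libraries (3.70, 4.41 and 4.16 FPKM) than in Col-0 (16.89, 17.57 and 19.10 FPKM). SE was at 28.97, 27.18 and 25.51 FPKM in se-1, against 30.72, 33.25 and 31.08 FPKM in Col-0 (-0.21, limma adjusted p = 0.0052), a call lost when organelle genes were left out and libraries rescaled (adjusted p = 0.192). A transcript level does not check an allele whose lesion is not given. Chloroplast genes held 0.0313% to 3.44% of the FPKM of a library, most in cyp71-3 replicate 1. Leaf markers summed to 31892 to 32569 FPKM in cyp71-3, 34771 to 38780 in se-1 and 39447 to 40688 in Col-0, with all 5 above 0 in every library. Against Col-0, 4 leaf markers were lower in cyp71-3 (-0.63 to -0.38) and 3 in se-1 (-0.49 to -0.15), and 0 were higher. Of all tested genes, 32.7% were lower in cyp71-3 and 25.1% in se-1. RBCS1A, the most abundant leaf marker, was not called in either mutant. Root markers summed to 51.96 to 55.04 FPKM in cyp71-3, 67.56 to 78.04 in se-1 and 45.75 to 50.96 in Col-0, with all 9 above 0 in every library. Within that sum, 4 root markers were higher in cyp71-3 than in Col-0 (EXPA7, PRP3, EXPA18 and COBL9, 0.37 to 1.56) and 4 lower (CASP1 to CASP4, -0.87 to -0.45), while in se-1 6 were higher and 0 lower. The 5 flower markers summed to 1.31 to 1.52 FPKM in cyp71-3, 3.00 to 4.42 in se-1 and 1.02 to 1.63 in Col-0. Of these markers, AP1 was at 0 in the cyp71-3 libraries, at 0.53, 0.45 and 0.95 FPKM in se-1 and at 0, 0 and 0.15 FPKM in Col-0. Their part in the results on clock genes was not tested, and in whole seedlings fewer cells that express a gene and less of its RNA per cell cannot be told apart.

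In all 3 genotypes LNK2, LHY and CCA1 stood highest of the 10 genes in FPKM, a unit per transcript length, and PRR5 stood lowest. In Col-0 the means were 466 ± 4.78 FPKM for LNK2, 299 ± 2.90 for LHY and 272 ± 3.83 for CCA1 (SD, n = 3), levels above those of 98.8%, 97.9% and 97.6% of the genes tested. PRR9 (27.79 to 30.06 FPKM) and PRR7 (25.06 to 25.67) came next, followed by GI (9.68 to 10.24) and TOC1 (6.03 to 6.89). LUX (3.78 ± 0.39) and ELF4 (3.78 ± 0.25) overlapped in Col-0, and PRR5 was at 0.39 ± 0.17 FPKM. In both mutants PRR7 and PRR9 changed places in this order, with PRR7 at 21.7 ± 0.61 FPKM and PRR9 at 15.8 ± 1.26 in cyp71-3. In se-1 the pair stood close together, with PRR7 at 23.03 to 23.85 FPKM and PRR9 at 21.25 to 23.09, ranges that overlap.

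**Figure D2:**
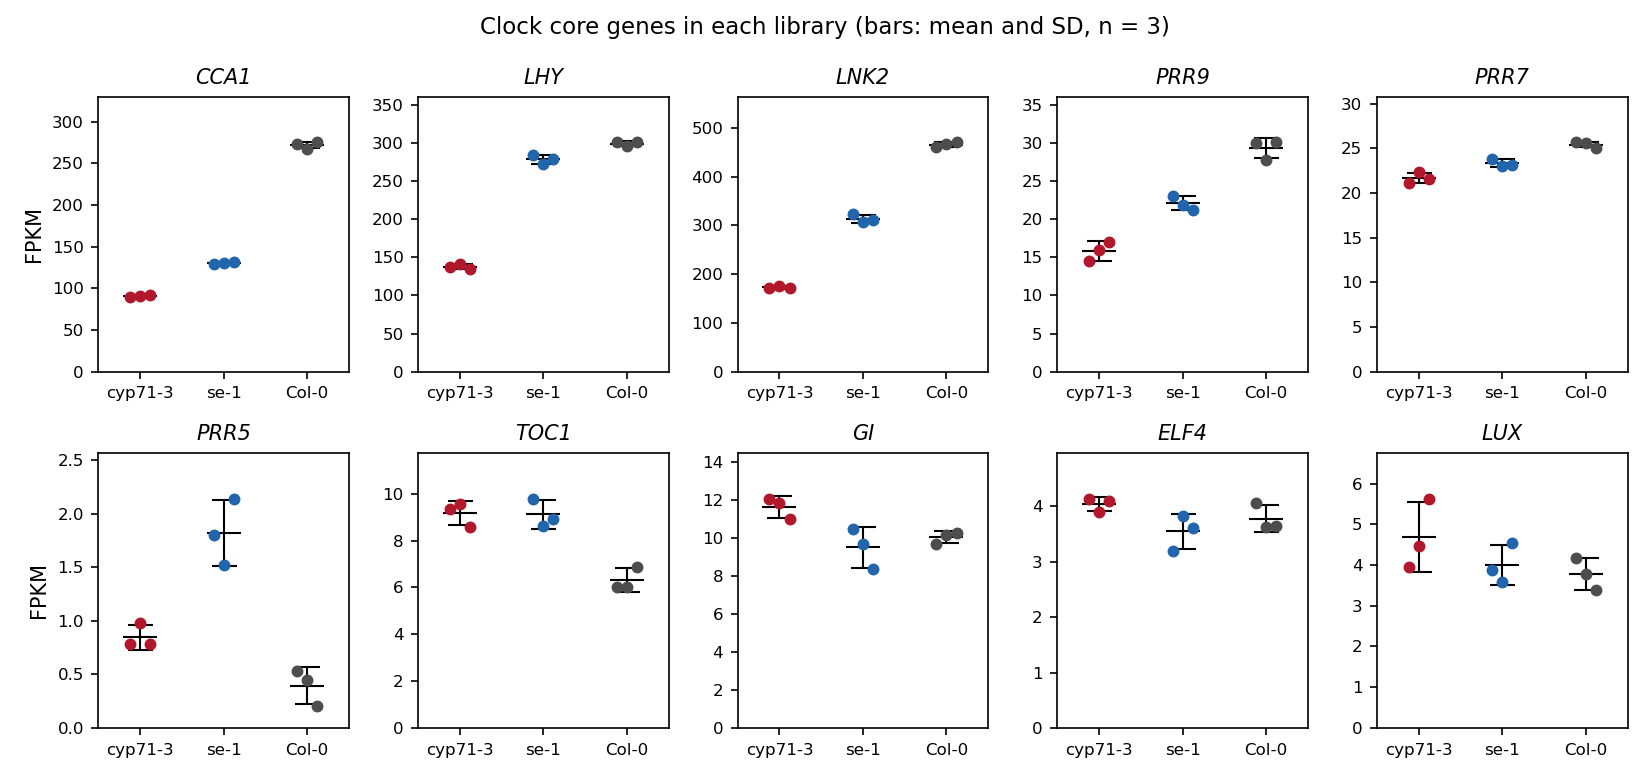
FPKM of the 10 clock core genes (y axis of each panel, starting at 0) in the 3 libraries each of cyp71-3, se-1 and Col-0, with points for libraries and bars for the mean and SD. CCA1, LHY, LNK2 and PRR9 are lowest in cyp71-3 and highest in Col-0, and TOC1 is at 8.58 to 9.79 FPKM in the 6 mutant libraries and at 6.03 to 6.89 in Col-0.

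The first comparison asked how the clock genes stood in cyp71-3 relative to Col-0. CCA1 and LHY, the MYB-like repressors of the dawn, and LNK2, the coactivator, were lower in cyp71-3 by more than 1 on the log2 scale. PRR9 and PRR7 were lower by less, while TOC1, PRR5 and GI were higher. In all, 5 of the 10 genes were lower, 3 higher and 2 (ELF4 and LUX) not called, where 63.3% of all tested genes were called in this comparison, 32.7% lower and 30.6% higher. Groups did not overlap for 8 of the 10 genes, against 70.1% of all tested genes, and both member counts are to be read against these shares. A fall of at least 1 on the log2 scale was called in 3 members and in 3.06% of all tested genes, and a rise of that size in 0 members and 3.53%. The median log2 fold change of the 10 genes was -0.07, against -0.01 over all tested genes, and their median absolute change was 0.44, against 0.28. When genes of the organelle genomes were left out and libraries rescaled to equal sums, the calls over all genes were 7399 higher and 4774 lower, against 5871 and 6277 as deposited, and the median of all genes moved to 0.09.

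CCA1 stood at 89.44, 90.31 and 92.35 FPKM in the cyp71-3 libraries, against 273.29, 267.93 and 275.35 FPKM in Col-0. Every cyp71-3 library lay far below every Col-0 library, and the ratio of the means was 3.00-fold lower (log2 fold change -1.57 ± 0.03 SE, limma adjusted p = 1.21e-11). Of all tested genes, 1.86% changed by more in either direction. LHY, the close relative of CCA1, was at 136.67, 140.99 and 134.38 FPKM in cyp71-3, against 300.54, 295.46 and 300.44 FPKM in Col-0. It fell 2.18-fold without overlap (-1.12 ± 0.03, limma adjusted p = 2.05e-10). LNK2 was at 171.69, 176.11 and 170.85 FPKM in cyp71-3, against 460.72, 466.12 and 470.26 FPKM in Col-0, and fell 2.69-fold (-1.42 ± 0.03, limma adjusted p = 3.3e-11). The calls of these 3 genes held in all 21 alternative settings.

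Of the day-phased repressors, PRR9, which peaks in the morning, was at 14.48, 16.00 and 16.97 FPKM in cyp71-3, against 30.01, 27.79 and 30.06 FPKM in Col-0. The groups did not overlap, and PRR9 fell 1.85-fold (-0.85 ± 0.06, limma adjusted p = 3.82e-07). PRR7, which follows PRR9, was at 21.10, 22.31 and 21.62 FPKM in cyp71-3, against 25.67, 25.56 and 25.06 FPKM in Col-0. This was a fall of 0.22 ± 0.04 on the log2 scale (limma adjusted p = 0.000759), smaller than that of 59.1% of genes in either direction, and the call was lost when organelle genes were left out and libraries rescaled (-0.12, adjusted p = 0.0719). PRR5, the afternoon member, was at 0.78, 0.98 and 0.78 FPKM in cyp71-3, against 0.53, 0.45 and 0.20 FPKM in Col-0. All cyp71-3 values lay above all Col-0 values (0.41 ± 0.14, limma adjusted p = 0.0251), and both genotypes were below 1 FPKM. PRR5 passed the filter on mean FPKM only through se-1, and its value in cyp71-3 ran from 0.12 to 1.00 over the alternatives. Its call in cyp71-3 was lost in 3 of 20 alternatives, among them without cyp71-3 replicate 2 (adjusted p = 0.075) or Col-0 replicate 3 (adjusted p = 0.0854).

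TOC1, the evening repressor of CCA1 and LHY, was at 9.36, 9.58 and 8.58 FPKM in cyp71-3, against 6.03, 6.03 and 6.89 FPKM in Col-0. It rose 1.45-fold without overlap (0.48 ± 0.07, limma adjusted p = 0.000186), and the call held in all 21 alternatives. GI, a large protein that stabilizes the F-box protein ZTL, was at 12.05, 11.82 and 10.97 FPKM in cyp71-3, against 9.68, 10.16 and 10.24 FPKM in Col-0. The difference of 0.19 ± 0.08 on the log2 scale was near the threshold (limma adjusted p = 0.0453). It was no longer called in 10 of 21 alternatives, among them without cyp71-3 replicate 1 or 2, without se-1 replicate 2 and without any 1 of the Col-0 libraries (adjusted p = 0.0612 to 0.133). ELF4, at 4.14, 3.90 and 4.09 FPKM in cyp71-3, against 4.06, 3.63 and 3.64 FPKM in Col-0, overlapped between genotypes (95% interval of the log2 difference -0.11 to 0.27). LUX, the DNA-binding subunit of the evening complex, was at 3.95, 4.46 and 5.63 FPKM in cyp71-3, against 4.17, 3.78 and 3.39 FPKM in Col-0, and was not called (0.24, interval -0.02 to 0.51). It was called without cyp71-3 replicate 1 (0.34, limma adjusted p = 0.0411) and with organelle genes left out and libraries rescaled (0.33, limma adjusted p = 0.0273). The annotated span of LUX shares 1507 of 3918 bases with AT3G46650 on the opposite strand, listed at 0.75 to 1.95 FPKM. Whether fragments were assigned by strand is not given in the sources used here.

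**Figure D3:**
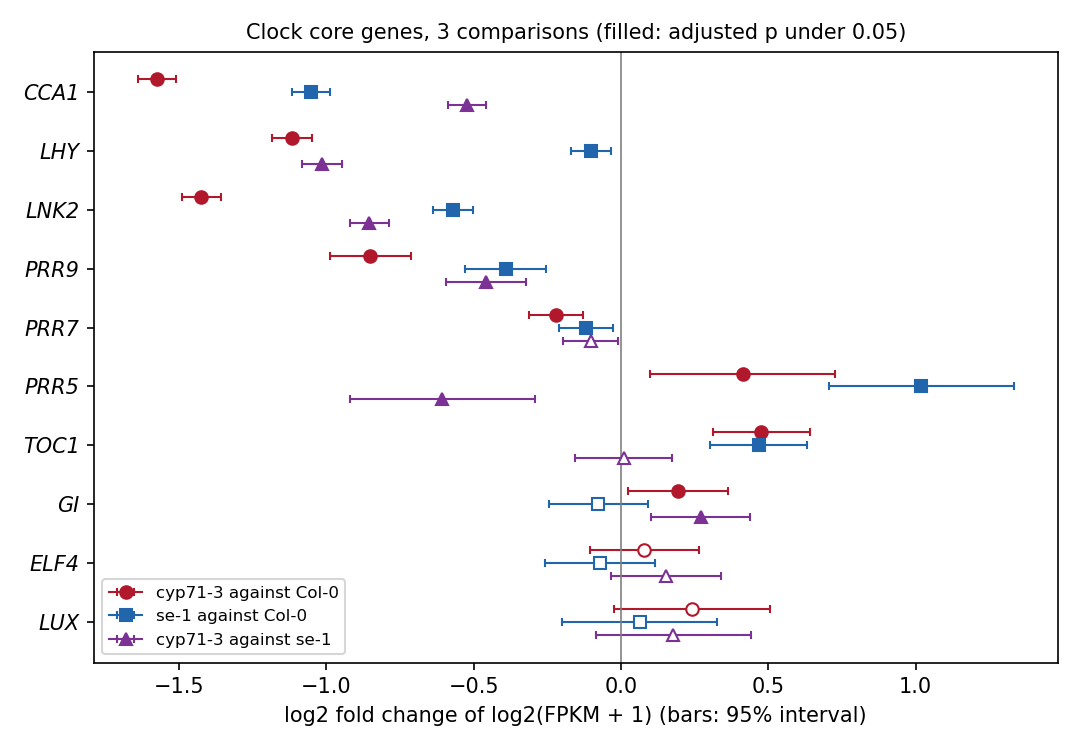
Log2 fold changes (x axis, on the log2(FPKM + 1) scale, bars are 95% intervals) of the 10 clock core genes in cyp71-3 against Col-0, se-1 against Col-0 and cyp71-3 against se-1. Filled symbols mark an adjusted p under 0.05; CCA1 lies at -1.57, -1.05 and -0.52.

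The second comparison gave the same genes in se-1 relative to Col-0, with the same Col-0 libraries as in the first. CCA1 and LNK2 were clearly lower in se-1, PRR9 less so, and TOC1 and PRR5 were higher. LHY (-0.10) and PRR7 (-0.12) were lower by little on the log2 scale, and GI, ELF4 and LUX were not called. That made 5 of 10 genes lower and 2 higher, where 50.2% of all tested genes were called, 25.1% in each direction. Groups did not overlap for 7 members, against 56.7% of all tested genes. A fall of at least 1 on the log2 scale was called in CCA1 and in 1.51% of all tested genes, and a rise of that size in PRR5 and in 2.01%. PRR5 passed the filter on mean FPKM only through se-1, where it is high, and its log2 fold change ran from 0.34 with a pseudocount of 5 to 2.02 with one of 0.1, so that it passes 1 depends on the pseudocount. The median log2 fold change was -0.09 for the 10 genes and 0.00 over all tested genes, and the median absolute change 0.26 and 0.21. With organelle genes left out and libraries rescaled, 6932 genes were called higher and 3038 lower, against 4818 and 4815 as deposited, and the median of all genes moved to 0.105.

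CCA1 was at 129.64, 130.95 and 131.93 FPKM in se-1, a level between those of cyp71-3 and Col-0 and overlapping neither. CCA1 fell 2.08-fold against Col-0 (-1.05 ± 0.03, limma adjusted p = 6.42e-10). LHY stood at 284.38, 272.36 and 279.07 FPKM in se-1, against 300.54, 295.46 and 300.44 FPKM in Col-0. Its fall was 1.07-fold (-0.10 ± 0.03, limma adjusted p = 0.0185). The call was lost without se-1 replicate 2, Col-0 replicate 1 or Col-0 replicate 3 (adjusted p = 0.0557 to 0.0666), and the value turned to 0.01 when organelle genes were left out and libraries rescaled. LNK2 was at 322.77, 306.08 and 311.50 FPKM in se-1 and fell 1.49-fold (-0.57 ± 0.03, limma adjusted p = 6.58e-08). Its span of 3701 bases shares 266 with the long non-coding RNA gene AT3G08405 (0 to 2.0 FPKM) and 93 with AT3G54490 (0 to 0.46 FPKM), both on the opposite strand.

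PRR9 was at 23.09, 21.91 and 21.25 FPKM in se-1, all below the Col-0 libraries, and fell 1.33-fold (-0.39 ± 0.06, limma adjusted p = 0.000307). PRR7 was at 23.85, 23.03 and 23.17 FPKM in se-1 (-0.12 ± 0.04, limma adjusted p = 0.0362). That call was lost in 9 of 21 alternatives, among them without se-1 replicate 2 or 3 or any 1 of the Col-0 libraries (adjusted p = 0.057 to 0.0916) and with a block for the replicate number (adjusted p = 0.0682). PRR5 was at 1.80, 1.52 and 2.14 FPKM in se-1, against 0.53, 0.45 and 0.20 FPKM in Col-0. All se-1 values lay above 1.5 FPKM and all Col-0 values below 0.6 (1.02 ± 0.14, limma adjusted p = 0.000122). The call held in all 20 alternatives that tested PRR5, a gene that passed the main filter only through its high se-1 values. TOC1 was at 9.79, 8.63 and 8.92 FPKM in se-1 and rose 1.44-fold (0.47 ± 0.07, limma adjusted p = 0.000332). GI was at 10.47, 9.65 and 8.35 FPKM in se-1, around the Col-0 values (95% interval of the log2 difference -0.25 to 0.09). The intervals for ELF4 (-0.26 to 0.11) and LUX (-0.20 to 0.33) also spanned 0, with 3.20 to 3.83 FPKM for ELF4 and 3.59 to 4.54 for LUX in se-1.

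Whether the mutants differed was tested directly, as cyp71-3 against se-1. CCA1, LHY, LNK2, PRR9 and PRR5 were lower in cyp71-3 than in se-1 and GI was higher, while TOC1, PRR7, ELF4 and LUX were not called. Of all tested genes 62.2% were called, 32.2% lower and 30.0% higher, so 6 of 10 is close to the background. Groups did not overlap for 8 members, against 66.2% of all tested genes. A fall of at least 1 on the log2 scale was called in LHY and in 4.07% of all tested genes, and a rise of that size in 0 members and 3.28%. LHY differed most, with a fall of 1.02 ± 0.03 on the log2 scale (2.03-fold, limma adjusted p = 4.26e-10), followed by LNK2 (1.81-fold, -0.85 ± 0.03, limma adjusted p = 1.33e-09). CCA1 was 1.44-fold lower in cyp71-3 (-0.52 ± 0.03, limma adjusted p = 4.8e-08) and PRR9 1.40-fold lower (-0.46 ± 0.06, limma adjusted p = 6.15e-05). PRR5 was lower in cyp71-3 by 0.61 ± 0.14 on the log2 scale (limma adjusted p = 0.00317), and GI higher by 0.27 ± 0.08 (limma adjusted p = 0.00965). PRR5 had passed the filter only through se-1, where it is high, and its value here ran from -1.01 to -0.22 over the alternatives. TOC1 gave a difference of 0.01 with a 95% interval of -0.16 to 0.17, an interval whose ends are smaller than the rise of 0.48 in cyp71-3 and 0.47 in se-1 over Col-0. PRR7 missed the threshold (-0.10, limma adjusted p = 0.0524) and passed it in 3 of 21 alternatives, among them without cyp71-3 replicate 2 (-0.12, adjusted p = 0.0476).

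Ratios of members within a library do not depend on library scaling, and are given without a test. CCA1 exceeded TOC1 by 9.43-fold to 10.8-fold in cyp71-3, by 13.2-fold to 15.2-fold in se-1 and by 43.2-fold on average in Col-0 (highest 45.3-fold), without overlap between genotypes. The ratio of LHY to TOC1 was 14.6 to 15.7 in cyp71-3, 29.0 to 31.6 in se-1 and 43.6 to 49.8 in Col-0. The ratio of CCA1 to LHY averaged 0.66 ± 0.02 in cyp71-3, 0.47 ± 0.01 in se-1 and 0.91 ± 0.01 in Col-0 (SD, n = 3), lowest in se-1, where CCA1 was lower and LHY stood near its Col-0 level. The ratio of PRR9 to PRR7 was 0.73 ± 0.05 in cyp71-3, 0.95 ± 0.03 in se-1 and 1.15 ± 0.06 in Col-0. ELF4 and LUX, partners in the evening complex, kept a ratio of 0.73 to 1.05 in cyp71-3, 0.80 to 1.07 in se-1 and 0.96 to 1.07 in Col-0, which overlap.

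**Figure D4:**
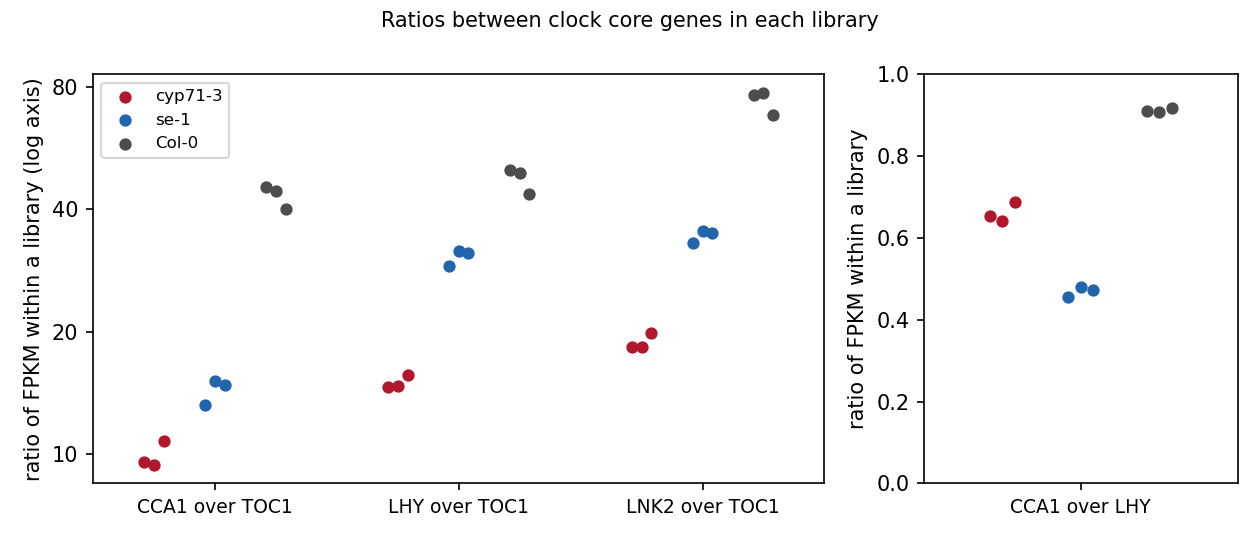
Ratios of FPKM within each library for CCA1, LHY and LNK2 over TOC1 (left, log axis) and CCA1 over LHY (right, from 0), with 3 libraries each of cyp71-3, se-1 and Col-0 as points. CCA1 over LHY is 0.64 to 0.69 in cyp71-3, 0.46 to 0.48 in se-1 and 0.91 to 0.92 in Col-0.

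The rest of the clock was examined through a list of 35 other clock genes, of which 31 were tested. BOA, FKF1, COR27 and AT4G33980 were below the filter. In cyp71-3 against Col-0, 17 were lower, 5 higher and 9 not called (median -0.27), where 32.7% of all tested genes were lower and 30.6% higher (median -0.01). In se-1 against Col-0, 14 were lower, 6 higher and 11 not called (median -0.11), where 25.1% of all tested genes were called in each direction (median 0.00). All 8 listed MYB-like genes of the RVE group were lower in cyp71-3, against 32.7% of all tested genes, and 3 of the 8 carry no RVE symbol in the reference. RVE1, which links the clock to auxin and growth, was at 28.6 FPKM in cyp71-3 and 94.6 in Col-0 (-1.69 ± 0.05, limma adjusted p = 3.05e-10), the lowest log2 value among all listed clock genes. RVE7 (-1.37), RVE8 (-0.97), AT1G01520 (-0.82), RVE4 (-0.74) and AT4G01280 (-0.55) also fell by at least 0.5 on the log2 scale. In se-1, 7 of the 8 were lower, against 25.1% of all tested genes, and RVE2 was higher, at 44.49, 47.02 and 44.63 FPKM, against 27.29, 26.57 and 29.05 FPKM in Col-0 (0.70 ± 0.05, limma adjusted p = 6.14e-07). RVE2 was lower in cyp71-3 than in Col-0, at 20.49 to 22.24 FPKM. RVE1 and RVE7 fell by only 0.18 and 0.21 in se-1, calls that were lost when organelle genes were left out and libraries rescaled, and RVE7 also without se-1 replicate 2, Col-0 replicate 1 or Col-0 replicate 3 (adjusted p = 0.0506 to 0.0883). AT1G01520 fell most in se-1, to 12.9 FPKM, against 43.2 FPKM in Col-0 (-1.67 ± 0.06, limma adjusted p = 3.77e-09), and AT5G52660 fell by 0.64 on the log2 scale.

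The 3 other LNK genes were lower in both mutants, where 32.7% of all tested genes were lower in cyp71-3 and 25.1% in se-1. LNK1 was at 61.7 FPKM in cyp71-3, 70.8 in se-1 and 113 in Col-0, with log2 fold changes of -0.86 ± 0.05 and -0.67 ± 0.05 for the mutants against Col-0 (limma adjusted p = 4.07e-08 and 6.32e-07). LNK3 (-0.90 in cyp71-3, -0.51 in se-1) and LNK4 (-0.76 and -0.29) moved likewise. PRR3 and ELF3 were higher in both mutants. PRR3, a relative of TOC1, was at 1.87 FPKM in cyp71-3, 1.31 in se-1 and 0.35 in Col-0 (1.09 and 0.77, limma adjusted p = 7.2e-05 and 0.00145), and passed the filter only through the mutants. ELF3, the scaffold of the evening complex, was at 12.31, 12.98 and 12.61 FPKM in cyp71-3, 8.94, 8.62 and 7.94 in se-1 and 7.02, 6.14 and 6.87 in Col-0. It was higher in cyp71-3 (0.83 ± 0.07, limma adjusted p = 9.57e-07) and in se-1 (0.31 ± 0.07, limma adjusted p = 0.00285). With the library of highest chloroplast share left out in each genotype, an alternative chosen after seeing the data, ELF3 in se-1 missed the threshold (0.22, adjusted p = 0.0522).

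The F-box gene ZTL, which targets TOC1 and PRR5 protein for degradation, was lower in cyp71-3 (-0.55) and se-1 (-0.42), and its relative LKP2 likewise (-0.40 and -0.26). The 4 genes related to ELF4 were mixed: ELF4-L3 was lower in cyp71-3 (-0.98) and se-1 (-0.80), and ELF4-L4 higher in se-1 (0.59). Of 12 tested regulators of core genes on the list, 3 were higher and 3 lower in cyp71-3, against 63.3% of all tested genes called. In se-1, 2 of these regulators were higher and 1 lower, against 50.2%, and neither count exceeds its share. Those past 0.5 on the log2 scale were JMJD5, a histone demethylase gene, higher in cyp71-3 (0.59) at 1.63 FPKM, against 0.75 FPKM in Col-0, a gene that passed the filter through the mutants, and TIC, which was lower in se-1 (-0.60) at 32.7 FPKM, against 49.8 FPKM in Col-0. Among 7 photoreceptor genes, 2 were higher and 3 lower in cyp71-3, and 2 higher and 5 lower in se-1, to be read against the same shares. The phytochrome gene PHYE was at 11.2 FPKM in cyp71-3, 15.8 in se-1 and 22.6 in Col-0 (-0.95 and -0.49, limma adjusted p = 2.65e-07 and 8.6e-05).

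Output genes were taken from a list of 18, of which 14 were tested and CO, FT, CBF1 and CBF3 were below the filter. In cyp71-3, 8 were lower and 4 higher, where 63.3% of all tested genes were called, 32.7% lower and 30.6% higher. In se-1, 7 were lower and 2 higher, where 50.2% of all tested genes were called, 25.1% in each direction. The DOF factor genes CDF1, CDF2 and CDF3, which repress CO, and AT1G69570 of the same list were all lower in both mutants. CDF2 was at 14.4 FPKM in cyp71-3, 29.9 in se-1 and 34.1 in Col-0 (-1.19 and -0.19), and the call in se-1 was lost when organelle genes were left out and libraries rescaled (-0.08, adjusted p = 0.285). CDF3 was at 31.0 FPKM in cyp71-3, 26.2 in se-1 and 58.0 in Col-0 (-0.88 and -1.12). COL1 and COL2, relatives of CO with a morning peak, were lower in both mutants, COL2 at 52.3 FPKM in cyp71-3 and 51.8 in se-1, against 112 FPKM in Col-0. The catalase gene CAT2, of the morning, was at 845 FPKM in cyp71-3, 1231 in se-1 and 1771 in Col-0 (-1.07 and -0.53), whereas CAT3, of the evening, was at 405 FPKM in cyp71-3, 268 in se-1 and 203 in Col-0 (0.99 and 0.40). The RNA-binding protein gene GRP7, also of the evening, rose in cyp71-3 (0.56) and se-1 (0.76), and its similar copy GRP8 was not called in cyp71-3 (-0.10, limma adjusted p = 0.166) or se-1 (0.10, limma adjusted p = 0.204). PIF4, a growth-promoting bHLH factor gene, was higher in cyp71-3 (0.65) and not called in se-1 (-0.07). CBF2, a cold-response factor gene listed as a morning output, was higher in cyp71-3, at 3.21 to 3.99 FPKM in cyp71-3, 0.61 to 1.15 in se-1 and 0.51 to 1.20 in Col-0 (1.36 in cyp71-3, limma adjusted p = 2.04e-05). It passed the filter through cyp71-3, and lies in a tandem of similar CBF copies that may share fragments. The photosystem antenna gene LHCB1.3 was not called in either mutant.

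Between the mutants, 6 of the 31 other clock genes were higher and 14 lower in cyp71-3 than in se-1, close to the 62.2% called among all tested genes. Differences past 0.5 on the log2 scale were found for RVE1 (-1.51), RVE7 (-1.16), RVE2 (-1.04), RVE8 (-0.51), AT1G01520 (0.84), ELF3 (0.52) and TIC (0.50). Among the outputs, 4 of 14 were higher and 5 lower in cyp71-3 than in se-1, again near that share, and those past the same size were CDF2 (14.4 FPKM in cyp71-3 and 29.9 in se-1), CAT2 (-0.54), CBF2 (1.28), PIF4 (0.71) and CAT3 (0.59).

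**Figure D5:**
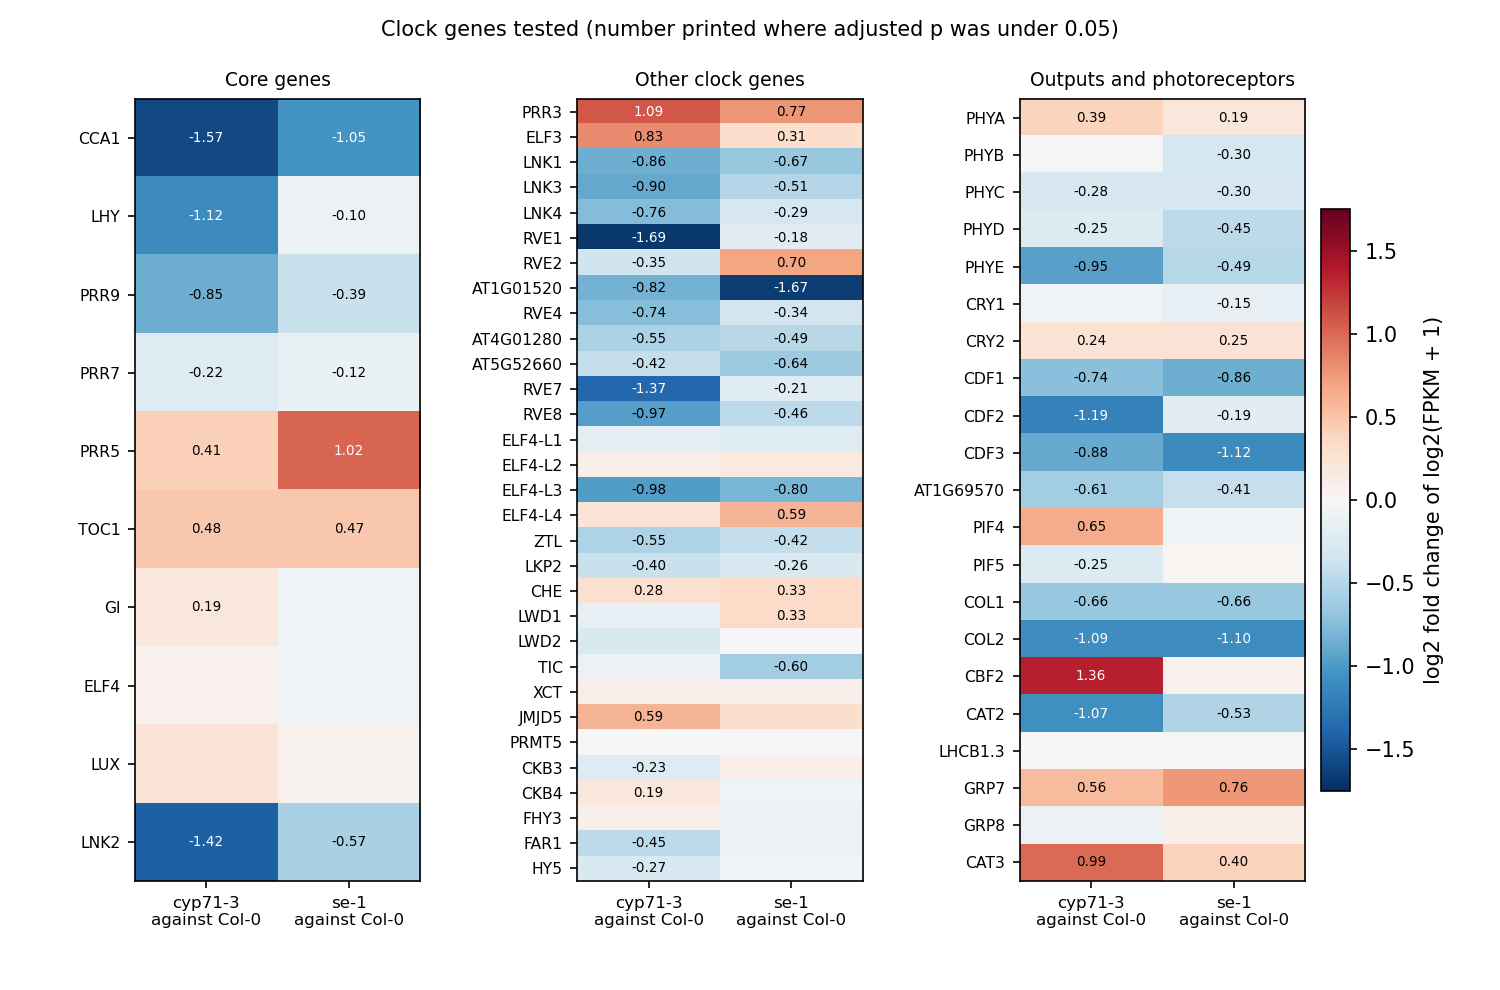
Log2 fold changes (colour, on the log2(FPKM + 1) scale) of the tested clock core genes, other clock genes, and outputs and photoreceptors (rows) in cyp71-3 and se-1 against Col-0 (columns), printed where the adjusted p was under 0.05. The LNK genes are among those called lower in both columns. Called higher in both are PRR5, TOC1, PRR3, ELF3, CHE, PHYA, CRY2, GRP7 and CAT3.

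Profiles nearest to a member were sought only among tested genes with a symbol in the reference. The measure was Euclidean distance over the 9 libraries between log2(FPKM + 1) values centred on the Col-0 mean. For CCA1, whose own profile lay 3.28 from a flat line, the nearest were cPT4 (AT5G58770, distance 0.28), GPX7 (AT4G31870, 0.33) and IAGLU (AT4G15550, 0.36). For LNK2 (2.66 from flat) they were BETA-OHASE 1 (AT4G25700, 0.22), PPT2 (AT3G01550, 0.23) and FADA (AT4G27030, 0.26). For TOC1 (1.18 from flat) they were PHV (AT1G30490, 0.18), FAH1 (AT2G34770, 0.18) and APRR2 (AT4G18020, 0.19). PRR7 (0.44 from flat) lay nearest to SHS1 (0.08), MOS11 (0.09) and AT-HF (0.09), GI (0.43 from flat) to FASS (0.12), NAT12 (0.13) and PLDGAMMA1 (0.13), and ELF4 (0.26 from flat) to emb2171 (0.11), EMB1789 (0.14) and SWI3B (0.14). The profiles of PRR7, GI and ELF4 lie close to flat. Of these 18 neighbours, 0 were on the lists of clock, photoreceptor and output genes. Listed genes without a symbol of their own in the reference, among them LNK1, LNK3 and LNK4, could not be found this way. Such genes are also a small part of all tested genes, so no conclusion is drawn from this count.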

How the data were processed

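Values were FPKM per gene with 2 decimals, deposited by the authors as 1 file per library, 3 libraries each of cyp71-3, se-1 and Col-0. The build TAIR10 and the tools STAR 2.7.2b, Trim Galore 0.6.7, Cuffdiff and Cuffnorm are listed per the submitters' processing notes. What each did, the annotation, strand use and how libraries were scaled are not stated there. No count model was run on FPKM, and a few abundant genes can shift all others. Symbols came from RefSeq TAIR10.1 (32538 of 32823 loci matched). Of 91 listed genes, 86 had a matching symbol there, and the others are given by locus.

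A linear model of genotype was fitted to log2(FPKM + 1) of 19180 genes (mean FPKM of at least 1) in all 9 libraries with limma 3.58.1 (R 4.3.3), with an intensity trend and 6 residual degrees of freedom. P-values are two-sided and Benjamini-Hochberg adjusted over all genes tested. Fold changes on this scale understate changes of low genes. Members and lists were chosen with earlier results of these data known. Beyond the members, the named genes were CYP71, SE and called list genes with a change of at least 0.5 on the log2 scale. For 6 members, the 3 nearest neighbours with a symbol in the reference were named too. Some list genes below 0.5 are given beside these and were chosen after their values were seen. The procedure was run on simulated data in which far fewer genes changed than were called here, and only in cyp71-3. That run does not check the procedure at the extent of change seen here. The model was refitted with another pseudocount, filter, scaling, variance trend or library weighting, with 2 genotypes alone, with a replicate block and with libraries left out. Summaries used Python 3.11.15, pandas 2.3.3 and numpy 2.4.6, figures matplotlib 3.10.9.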

Additional observations from a re-analysis of the deposited data

How the results depend on the processing

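Over 21 alternative settings, 577 of 621 member values kept their direction and their side of the threshold. With the sign kept, 28 lost the call and 5 gained it, and 11 changed sign. A value that changed sign was counted only there, even where its call was lost too, as for LHY in se-1 against Col-0. Those of CCA1, LNK2 and PRR9 kept direction and call in all 3 comparisons and all 21 settings. With a mean FPKM of at least 5, PRR5, ELF4 and LUX were not tested and 1 member was higher in se-1 against Col-0, in place of 2. With organelle genes left out and libraries rescaled, 3 members were lower in se-1 against Col-0 in place of 5, and values of LHY (0.0121), GI (0.0261) and ELF4 (0.0169) turned positive, as the median of all genes moved to 0.105. Leaving out 1 library at a time gave 1 to 3 members higher in cyp71-3 against Col-0 and 3 to 5 lower in se-1 against Col-0. The log2 fold change then ranged from -0.14 to 0.0037 for GI and from -0.0126 to 0.12 for LUX in se-1 against Col-0, and from -0.0256 to 0.0565 for TOC1 in cyp71-3 against se-1. That TOC1 value was -0.0003 under median centring and -0.0072 under quantile normalization. Leaving out the library with the highest chloroplast share of each genotype, an alternative chosen after seeing the data, left 1 member higher in cyp71-3 against Col-0 and changed 3 of 30 member calls. Except where a construction such as a stricter filter or fewer libraries shows it, the cause was not tested.

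Same-numbered libraries did not deviate together (r of -0.137 to 0.043 in 9 pairs), so the numbers were not taken as pairs. With a replicate block, 4 members were lower in se-1 against Col-0 in place of 5, the other member counts did not change, and 1 of 9 libraries correlated best with its own number. A further 32 genes were followed: CYP71, SE, and clock, photoreceptor and output genes called with a change of at least 0.5 in some comparison. Only values called in the main fit were taken, so none could gain a call. Of their 1692 values, 1661 kept direction and call and 31 lost the call. Absolute depth is unknown, and it limits PRR5, ELF4 and LUX most.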
